A study of Homo sapiens with 4 samples.

Results

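The genes described here are 10 genes of aldehyde oxidation and retinoic acid signalling, found by gene name in an expression table of 28391 genes: the aldehyde dehydrogenases ALDH1A3, ALDH1B1, ALDH2, ALDH3A2, ALDH7A1, ALDH9A1 and ALDH18A1, the retinoic acid carrier CRABP2, and the retinoic acid receptors RARA and RARG. RNA was sequenced from HCT116, an established human colorectal carcinoma line, in 2 libraries with a control hairpin (shNC, genotype WT in the labels) and 2 libraries with a hairpin against ALKBH5 (shALKBH5, genotype ALKBH5 knockdown). ALKBH5 removes N6-methyladenosine, a methyl mark on adenosines of RNA. One hairpin against ALKBH5 is labelled, with no rescue, and nothing in the labels ties a group's libraries to separate cultures, so p-values measure the spread between these libraries only, which may be technical. The names were chosen with the values of this same contrast known, so the differences of the 10 genes are given as a description and not as a test.

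Aldehyde dehydrogenases oxidise aldehydes to carboxylic acids, and each enzyme of the family has its own preferred substrates and compartment. The ALDH1A enzymes turn retinal into retinoic acid, which CRABP2 carries to the nucleus, where receptors of the RAR family bind DNA with RXR partners and exchange corepressors for coactivators. CYP26 enzymes then clear retinoic acid. In the colon this pathway is known for its part in the differentiation of epithelial cells, and aldehyde dehydrogenase activity is widely used as a marker of stem-like tumour cells.

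Values are normalised read counts, and libraries are given in the order shNC 1, shNC 2, shALKBH5 1, shALKBH5 2 throughout. The libraries held 16398604 to 17493141 reads, and 1 read was worth 0.951 to 1.02 normalised counts. ALKBH5 went with the labels: both controls, at 1905 and 1941, lay far above both knockdown libraries, at 312 and 270.2. Of 9 epithelial markers with a row in the table, EPCAM, CDH1, KRT8, KRT18 and KRT19 were abundant, whereas the intestinal markers VIL1 and LGR5 were at no more than 3.04 in any library and CDH17 at no more than 13.3. CDX2, an intestinal transcription factor, was at 290.1, 399, 396 and 459. KRT18 fell by 0.30 and KRT8 by 0.15 on the log2 scale (adjusted p 0.0260 and 0.0484 in limma-trend), and the other 7 did not pass in limma-trend. EPCAM went the other way, at 0.18 (limma-trend adjusted p 0.0538, edgeR 0.0034), and CDH1 was at -0.19 (limma-trend 0.0630, edgeR 0.0076). Log2 fold changes of the 9 markers lay above 0 for 4 and below 0 for 5. KRT8 was not past the threshold with TMM factors (limma-trend adjusted p 0.0561), a pseudocount of 0.1 or 5 (0.0635 and 0.0615) or no filter (0.0501). Summed markers lay between 6.01 and 19.4 for leukocytes, 6.08 and 15 for endothelium, 1.01 and 5.11 for hepatocytes and 6.13 and 15.2 for squamous cells. The fibroblast list summed to 854 to 925, nearly all of it COL1A1, which was at 903, 910, 870 and 838. The part of these differences in the results below was not tested. In RNA of a whole culture, fewer cells that express a gene and less of its RNA per cell cannot be told apart.

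**Figure D1:**
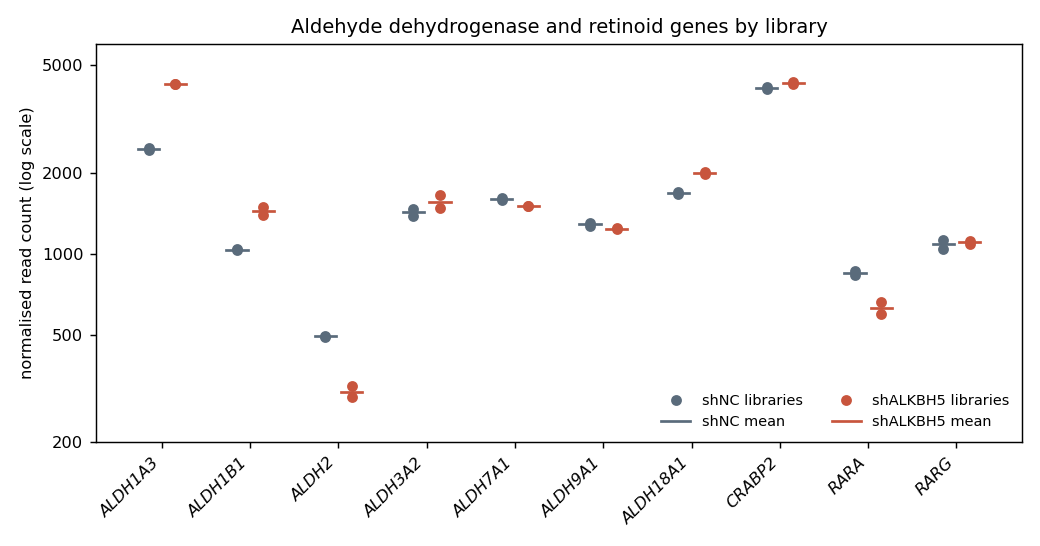
Normalised read counts (log scale) of the 10 genes, with 1 point per library and a bar at each group mean (n = 2 per group). ALDH1A3 sits near 2442 in shNC and near 4256 in shALKBH5, ALDH2 and RARA sit lower in shALKBH5, and only RARG has overlapping groups.

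ALDH1A3, ALDH1B1 and ALDH18A1 were higher and ALDH2 and RARA lower in the shALKBH5 libraries, and these 5 of the 10 genes were past an adjusted p of 0.05 in a limma-trend fit over all 25887 genes tested. Of all genes tested, 3.86% of the genes were past that threshold (1.98% higher and 1.88% lower), and 10.9% of the 7672 genes with a mean of at least 400, the range in which all 10 genes lie; that level was set after their values were seen. The names were chosen on this contrast, so nothing is read from the count. All 10 genes passed the filter on low values in both groups. The groups did not overlap for 9 of the 10 genes, 5 with both shALKBH5 libraries above and 4 with both below, against 50.6% of all genes tested (25% above and 25.6% below) and 68.3% of those with a mean of at least 400. The median log2 fold change was 0.05 over the 10 genes and 0.00 over all genes tested. Without shNC library 1 or without shNC library 2, limma-trend passed 0 of the 10 genes and 0 genes of the whole table, while edgeR's quasi-likelihood test on the same 3 libraries passed 6 and 5 of the 10 (17.5% and 19.8% of genes tested). Without shALKBH5 library 1 or 2 limma-trend passed 5 of the 10 each time (8.82% and 9.45%), as did edgeR (11.3% and 12.9%). On all 4 libraries edgeR passed 5 of the 10 (20.8% of genes tested) and DESeq2 5 (11.9%). The authors' deposited table gives an adjusted p under 0.05 for 5 of the 10. For these genes its log2 fold changes differed from those of that DESeq2 fit by at most 2.1e-07, so it is not a separate result. Each passed 1484 genes, which is 5.23% of the 28391 deposited genes and 11.9% of the 12428 with an adjusted p from DESeq2. With a pseudocount of 0.1 limma-trend passed 3 of the 10 (1.93% of genes tested), with no filter on low values 4 (2.76%), and with libraries scaled to equal totals 4 (3.33%).

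ALDH1A3 (ENSG00000184254, chromosome 15, 100877714 to 100916626, plus strand, GRCh38) is a cytosolic enzyme that oxidises retinal to retinoic acid. It was read at 2459 and 2424 in the controls and at 4256 and 4257 with the ALKBH5 hairpin. Both knockdown values lay above both controls, and within a group the values were nearly level. The mean went from 2442 ± 24.2 to 4256 ± 0.536 (SD, n = 2), or 174% of the control. An SD of 0.536 from 2 libraries lies below the counting noise at that level and does not measure precision. The log2 fold change was 0.80 ± 0.0340 (SE) on the log2(value + 1) scale. The largest difference among the 10 genes was that of ALDH1A3, and with single libraries left out it stayed between 0.79 and 0.81 in the limma fits.

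The start region of ALDH1A3 in the RefSeq table (GRCh38.p14, chr15:100879581-100879880, plus strand) is shown because ALDH1A3 had the largest difference, with that of ALDH1B1 (chr9:38392452-38392751, plus strand) as the other enzyme of the ALDH1 class. Each sequence runs from 250 bases before the start to 50 after it, and capitals mark GGGCGG on either strand, the GC box that Sp1 proteins bind.
ALDH1A3: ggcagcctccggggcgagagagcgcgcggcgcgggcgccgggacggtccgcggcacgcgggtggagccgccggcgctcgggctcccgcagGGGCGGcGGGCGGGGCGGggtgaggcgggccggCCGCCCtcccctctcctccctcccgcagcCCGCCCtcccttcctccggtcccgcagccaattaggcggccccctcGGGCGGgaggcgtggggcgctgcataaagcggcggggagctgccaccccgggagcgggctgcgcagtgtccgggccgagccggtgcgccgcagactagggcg
ALDH1B1: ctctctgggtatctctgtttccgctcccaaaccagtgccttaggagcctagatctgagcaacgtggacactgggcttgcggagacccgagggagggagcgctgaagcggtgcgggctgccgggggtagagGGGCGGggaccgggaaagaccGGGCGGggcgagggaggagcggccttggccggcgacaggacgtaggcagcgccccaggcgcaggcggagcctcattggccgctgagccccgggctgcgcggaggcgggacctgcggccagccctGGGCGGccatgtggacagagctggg
The ALDH1A3 window held 6 copies of GGGCGG, some of which overlap, and 81.7% G and C, against a median of 58.7% over the 35116 start regions in that table. The ALDH1B1 window held 3 copies and 71.3% G and C. GGGCGG occurred in 45% of all start regions and in 9 of the 12 regions of the 9 genes that had an entry. ALDH2 had no entry.

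Transcripts of the antisense genes AC015712.2 and AC015712.7 overlap ALDH1A3 on the opposite strand. AC015712.2 was at 279, 218, 362 and 345, and its log2 fold change of 0.52 ± 0.133 did not pass (limma-trend adjusted p 0.103). AC015712.7 was at 33.3, 19.4, 49.7 and 58.0 and did not pass either (log2 fold change 1.05 ± 0.328, limma-trend adjusted p 0.151). Both lay higher in both shALKBH5 libraries than in either control. Strand use in counting is not given in the sources used here, so reads of ALDH1A3 and of these genes cannot be told apart where they overlap.

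ALDH1B1 (chromosome 9, 38392664 to 38398661, plus strand) is a mitochondrial enzyme close in sequence to ALDH2. It was at 1042 and 1032 in the controls and at 1389 and 1492 after knockdown. The groups were well apart, with more spread between the shALKBH5 libraries than between the controls. The mean went from 1037 ± 6.79 to 1441 ± 72.9 (n = 2), a log2 fold change of 0.47 ± 0.0535 (SE).

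ALDH2 (chromosome 12, 111766887 to 111817529, plus strand), the mitochondrial enzyme best known for clearing acetaldehyde, went the other way. It was at 497 and 493 in the controls and at 322 and 294 with the hairpin against ALKBH5. The controls were almost equal, and both shALKBH5 libraries lay well below them. The mean went from 495 ± 2.81 to 308 ± 19.8 (n = 2), or 62.2% of the control, with a log2 fold change of -0.68 ± 0.0773 (SE). The difference between ALDH1B1 and ALDH2 in direction was not tested.

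ALDH18A1 (chromosome 10, 95605929 to 95656706, minus strand) makes pyrroline-5-carboxylate from glutamate, the first committed step to proline and ornithine. It was at 1693 and 1661 in the controls and at 2013 and 1981 after knockdown. The step between the groups was larger than the spread within either. The log2 fold change was 0.25 ± 0.0400 (SE), or 119% of the control mean. ALDH18A1 was not past the threshold when libraries were scaled to equal totals or with a pseudocount of 0.1, at log2 fold changes of 0.22 and 0.25.

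ALDH3A2, the membrane-bound enzyme that oxidises fatty aldehydes, was at 1468, 1378, 1647 and 1476. The lower shALKBH5 library lay just above the higher control, and the log2 fold change of 0.13 ± 0.0684 (SE) ran from 0.05 to 0.21 when single libraries were left out. It was the sixth gene that edgeR passed without shNC library 1, at an adjusted p of 0.0466. ALDH7A1, which oxidises the semialdehyde of lysine breakdown, was at 1604, 1588, 1507 and 1503, a difference of -0.08 ± 0.0405 on that scale. ALDH9A1, which makes the butyrobetaine used for carnitine, was at 1305, 1268, 1246 and 1235, with -0.05 ± 0.0448. For ALDH7A1 and ALDH9A1 the groups did not overlap, but the difference was under 6% of the control mean, at 94.3% and 96.4%.

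**Figure D2:**
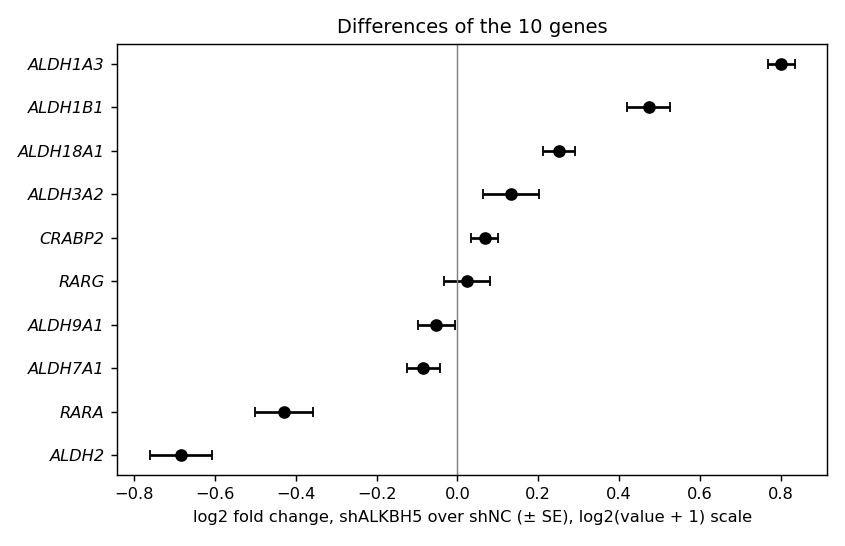
Log2 fold change of shALKBH5 over shNC for the 10 genes with SE bars from the limma-trend fit (n = 2 libraries per group, log2(value + 1) scale). The genes run from ALDH2 at -0.68 to ALDH1A3 at 0.80, and the bar of RARG spans 0.

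CRABP2 (chromosome 1, 156699606 to 156705816, minus strand), the small protein that hands retinoic acid to its receptors, was at 4069 and 4155 in the controls and at 4351 and 4267 after knockdown. The groups lay close together without overlapping. The log2 fold change was 0.07 ± 0.0340 (SE), or 105% of the control mean.

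RARA (chromosome 17, 40309192 to 40357643, plus strand) encodes retinoic acid receptor alpha, a ligand-dependent transcription factor. It was at 833 and 862 in the controls and at 664 and 596 after knockdown. Both shALKBH5 libraries were lower, and they differed more from each other than the controls did. The mean went from 848 ± 20.6 to 630.1 ± 47.5 (n = 2), or 74.3% of the control, with a log2 fold change of -0.43 ± 0.0710 (SE). RARA was not past the threshold with no filter on low values or with a pseudocount of 0.1, at log2 fold changes of -0.43 in both. RARA-AS1, an antisense gene that overlaps it, was at 34.2, 36.8, 35.5 and 26.0. AC080112.3, on the opposite strand within RARA, was at 25.7, 18.4, 6.08 and 10, lower in both shALKBH5 libraries than in either control, and did not pass (log2 fold change -1.37 ± 0.434, limma-trend adjusted p 0.154).

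RARG (chromosome 12, 53210567 to 53232980, minus strand), the gamma receptor, was at 1043 and 1128 in the controls and at 1113 and 1092 after knockdown. Its groups overlapped. The log2 fold change was 0.02 ± 0.0568 (SE), and it was -0.01 with libraries scaled to equal totals and -0.03 without shNC library 1. That RARA and RARG differed from each other in their response was not tested.

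Receptors of retinoic acid bind repeats of a 6-base half-site, so the start regions of CRABP2 (chr1:156705735-156706034, minus strand) and of the first of 3 listed RARA starts (chr17:40308930-40309229, plus strand) are shown with the half-sites AGGTCA or GGGTCA, their variants AGTTCA or GGTTCA, together with the GC box, in capitals on either strand (RefSeq, GRCh38.p14).
CRABP2: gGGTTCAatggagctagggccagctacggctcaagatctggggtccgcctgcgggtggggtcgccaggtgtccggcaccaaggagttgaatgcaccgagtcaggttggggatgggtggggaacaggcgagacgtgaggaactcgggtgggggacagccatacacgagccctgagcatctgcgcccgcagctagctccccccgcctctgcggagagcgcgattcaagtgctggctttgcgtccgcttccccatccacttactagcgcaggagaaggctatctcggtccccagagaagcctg
RARA: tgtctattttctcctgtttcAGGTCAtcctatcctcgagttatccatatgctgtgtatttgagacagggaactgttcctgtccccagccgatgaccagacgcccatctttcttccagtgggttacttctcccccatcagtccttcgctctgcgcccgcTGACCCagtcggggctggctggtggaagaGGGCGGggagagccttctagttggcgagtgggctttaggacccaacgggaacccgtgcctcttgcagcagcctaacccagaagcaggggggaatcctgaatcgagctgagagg
The RARA window held AGGTCA and, on the other strand, GGGTCA, and the CRABP2 window held GGTTCA near its upstream end. The other 2 RARA windows held no half-site, and neither did those of ALDH1A3 and ALDH1B1. Half-sites were in 3 of the 12 regions of the 9 genes, the last being AGTTCA in ALDH18A1, and in 38.6% of all 35116 regions. A match describes the letters and not a bound site.

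ALKBH5 acts on adenosines in RNA, and GGACT is the most common form of the methylated motif, so the coding sequences of the principal GENCODE release 29 transcripts were searched for it. ALDH18A1 held 3 copies, ALDH1A3 held 2, and ALDH1B1, ALDH7A1, ALDH9A1 and RARA held 1 each, while ALDH2, ALDH3A2, CRABP2 and RARG held 0. Per 1000 coding bases that was 1.30 for ALDH1A3 and 1.26 for ALDH18A1, against a median of 0.995 over 15896 genes, of which 74.9% held the motif. The other 8 genes lay below that median, RARA at 0.720, ALDH1B1 at 0.644, ALDH9A1 at 0.642, ALDH7A1 at 0.617 and the rest at 0. The copy nearest the end of the coding sequence is shown for the genes with a difference past the threshold. Each is in the mRNA sense, with that copy in capitals and its positions on GRCh38. The ALDH18A1 stretch also holds another copy, left in lower case.
ALDH1A3, chr15:100907199-100907203: agcaccgactatGGACTcacagcagccgt
ALDH18A1, chr10:95606880-95606884, minus strand: gtaggacttgagGGACTgcttactactaa
ALDH1B1, chr9:38396159-38396163: gtcttacgccttGGACTtggatgaggtca
RARA, chr17:40331318-40331322: cctatgctgggtGGACTctccccgccagg
Methylation itself was not measured in these libraries, and the untranslated parts of the transcripts were not searched. The genes with the motif in coding sequence included both higher and lower ones, and any relation to the differences was not tested. ALDH2, which was lower, held none in its 1554 coding bases, but its transcript has 9569 bases.

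Compared per length, CRABP2 was the most abundant of the 10 in both groups. On the scale of normalised counts per 1000 bases of the principal transcript, the control level of CRABP2 was 3981, that of ALDH1A3 622, that of ALDH18A1 499 and that of ALDH9A1 477. RARG at 367, ALDH3A2 at 362 and RARA at 351 followed, and the ranges of these 3 overlapped between libraries, so their order is not set. ALDH1B1 was at 338, ALDH7A1 at 321 and ALDH2 at 51.8. On the same scale in shALKBH5, ALDH1A3 stood at 1085, ALDH1B1 at 470 and RARA at 261. With the gene lengths of the table in place of transcript lengths, ALDH1A3 at 423 came after ALDH18A1 at 445 in shNC and before it, at 737, in shALKBH5. On those lengths ALDH1B1, at 329 in shNC, came before ALDH3A2 at 220, RARG at 212 and RARA at 179, so its place also depends on the length used. Of the summed level per transcript length of the 7 aldehyde dehydrogenases, ALDH1A3 made up 23.2% and 23.4% in the controls, and 32.3% and 32.6% after knockdown.

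**Figure D3:**
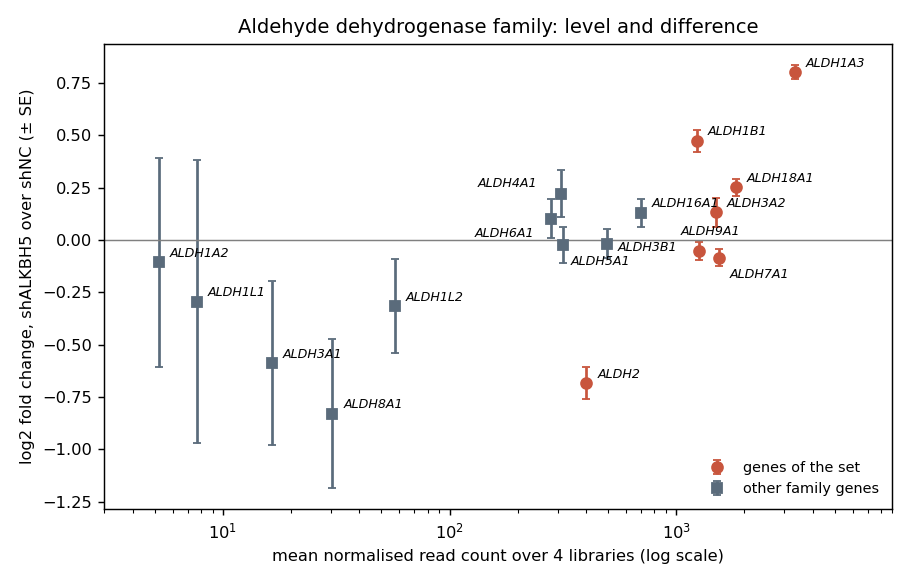
Mean normalised read count over the 4 libraries (log scale) against log2 fold change of shALKBH5 over shNC with SE bars, for the 7 aldehyde dehydrogenases described above (circles) and 10 other genes of the family that were tested (squares). ALDH1A3 is the most abundant, and the genes with few reads have the widest bars.

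The human family has 19 genes, and of the 12 not described above 11 had a row and 10 were tested; ALDH1A1 was not analysed here. Of these 10 genes, 0 rose and 0 fell in limma-trend, where 3.86% of all genes tested passed. An unadjusted p under 0.05 was found for 0 of them, and for 5531 of all 25887 genes tested. edgeR and DESeq2 also passed 0, against 20.8% and 11.9% of the genes they tested, and gave no adjusted p for some low genes. With 10 genes, some of them low, nothing is read from these counts. The median log2 fold change of the 10 genes was -0.06, against 0.00 for all genes tested. ALDH16A1, at 701, 639.6, 729 and 738, differed by 0.13 ± 0.0661 (SE) on the log2 scale. ALDH3B1, at 483, 509, 474 and 505, had -0.02 ± 0.0699, and ALDH5A1, which oxidises succinic semialdehyde, had -0.02 ± 0.0869. ALDH1A2, the other ALDH1A enzyme with a row, was at 4.76, 6.13, 4.05 and 6.01, and no difference was detectable at this depth. ALDH8A1 was at 31.4, 47.0, 17.2 and 26.0, a difference of -0.83 ± 0.355 on the log2 scale; edgeR without shNC library 1 passed it at an adjusted p of 0.0445.

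The rest of the retinoid pathway was covered by 3 lists of carriers and metabolic enzymes, receptors with their cofactors, and known target genes, together 57 genes, of which 46 had a row and were tested and 8 were in 2 lists. Of the 46, 2 rose, 1 fell and 43 did not pass, where 3.86% of all genes tested passed, and the median log2 fold change was -0.09. The gene that fell, in the handling and the target list, was CYP26B1, an enzyme that breaks down retinoic acid and that retinoic acid induces. It was at 752 and 845 in the controls and at 526 and 530.4 after knockdown, and its log2 fold change was -0.59 ± 0.0740 (SE; adjusted p 0.0234 in limma-trend). Both shALKBH5 libraries were below both controls, by far more than they differed from each other. CYP26A1, another CYP26 enzyme, was at 14.3, 7.15, 17.2 and 6.01, too low to show a difference.

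Of 24 carriers and enzymes of retinoid metabolism, 0 rose and 1 fell. FABP5, a carrier that can also take retinoic acid, had a log2 fold change of 0.00 ± 0.0641, and RETSAT, which saturates retinol, had 0.12 ± 0.0511. STRA6, the membrane receptor for retinol uptake, was at 16.2, 13.3, 5.07 and 4.0 and did not pass (log2 fold change -1.51 ± 0.438, limma-trend adjusted p 0.133), while edgeR gave an adjusted p of 0.0484.

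Of 15 receptors and cofactors, 2 rose and 0 fell. CARM1, an arginine methyltransferase that acts as a coactivator, rose from 2205 and 2358 to 2796 and 2738, by 0.28 ± 0.0468 (limma-trend adjusted p 0.0441). Each shALKBH5 library was above each control. CARM1 was not past the threshold with equal totals, with no filter or with a pseudocount of 0.1, at adjusted p-values of 0.0561, 0.0523 and 0.0667 (limma-trend). MED1 at 0.05, EP300 at -0.19 and RXRA at -0.18 on the log2 scale did not pass in limma-trend. For EP300 and RXRA the adjusted p was 0.0167 and 0.0252 in edgeR and 0.125 and 0.161 in DESeq2.

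Of 15 target genes, 0 rose and 1 fell, with a median log2 fold change of -0.28; the list holds CYP26B1, and 9 of the 15 had an unadjusted p under 0.05 in limma-trend, as did 5531 of all 25887 genes tested. DHRS3, which reduces retinal back to retinol, was at 893, 904, 1020 and 1002, with 0.17 ± 0.0479 on the log2 scale (limma-trend adjusted p 0.126). TGM2, a transglutaminase, was at 462.3, 461.8, 330.3 and 371, with -0.40 ± 0.0830 (adjusted p 0.0684 in limma-trend, 0.0046 in edgeR and 0.0744 in DESeq2). Across the 46 retinoid genes, limma-trend passed 0 without shNC library 1 or without shNC library 2, 6 without shALKBH5 library 1 (8.82% of all genes) and 9 without shALKBH5 library 2 (9.45%). Other tests called more: edgeR passed 13 of the 46, 4 higher and 9 lower, against its background of 20.8%, and DESeq2 passed 5, against 11.9%.

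**Figure D4:**
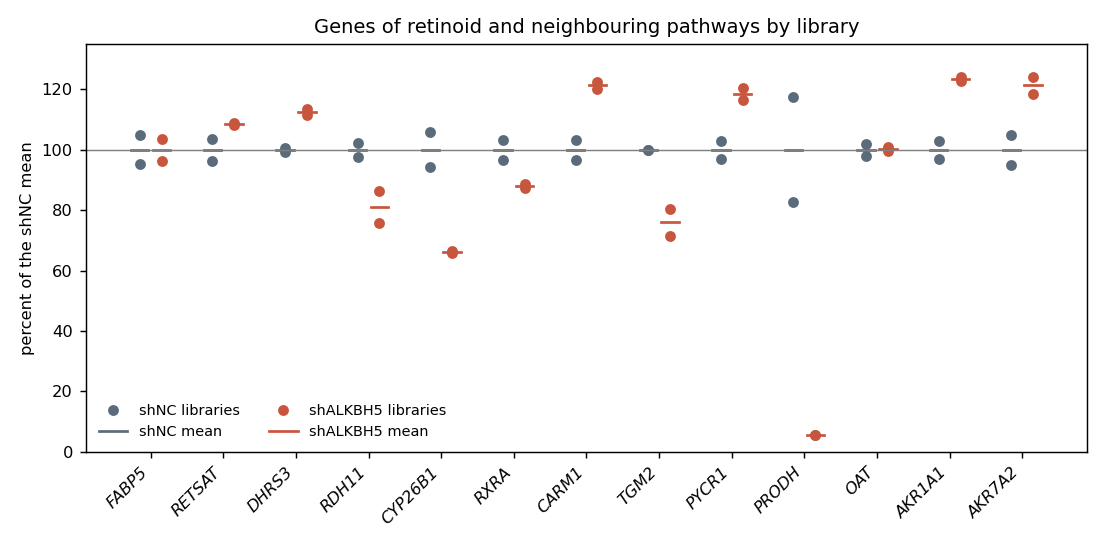
Normalised read counts of 13 genes of the retinoid, proline and carbonyl lists as a percent of each gene's shNC mean, with 1 point per library and a bar at the group mean. CYP26B1, PRODH, RDH11, RXRA and TGM2 lie below both controls in both shALKBH5 libraries. CARM1, PYCR1, AKR1A1, RETSAT, DHRS3 and AKR7A2 lie above them, and the groups of FABP5 and OAT overlap. Of all genes tested, 50.6% had groups that did not overlap, and 68.3% of those with a mean of at least 400.

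Enzymes next to these dehydrogenases in metabolism were covered by 2 further lists with 25 genes tested. Of these 2 rose and 1 fell, where 3.86% of all genes tested passed, and the median log2 fold change was 0.00. In the proline branch, PYCR1, the mitochondrial reductase that completes proline synthesis downstream of ALDH18A1, rose from 3694 and 3923 to 4591 and 4433, by 0.24 ± 0.0439 on the log2 scale (limma-trend adjusted p 0.0498). That value lies at the threshold: with equal totals, no filter or a pseudocount of 0.1 the adjusted p was 0.0654, 0.0587 or 0.0739 (limma-trend). PRODH, which starts proline breakdown, fell from 29.5 and 41.9 to 2.03 and 2.0 (limma-trend adjusted p 0.0221). The shALKBH5 values rest on 2 reads in each library, so the ratio of shNC to shALKBH5 of 17.6 has an exact 95% interval of 6.59 to 66.4 for counting error only; DESeq2 gave no adjusted p. PRODH has a related copy on its chromosome, so its reads are uncertain. OAT, which links ornithine to the same intermediate, had a log2 fold change of 0.00 ± 0.0387, and ADH5 had 0.03 ± 0.0522.

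Of 11 carbonyl reductases and related enzymes, 1 rose and 0 fell. AKR1A1, an aldehyde reductase, rose from 1548 and 1641 to 1976 and 1955, by 0.30 ± 0.0467 on the log2 scale (limma-trend adjusted p 0.0374). Both shALKBH5 libraries were above both controls. With a pseudocount of 0.1 its adjusted p was 0.0578 (limma-trend). AKR7A2, another aldehyde reductase, was at 1588, 1756, 2077 and 1979 and did not pass (log2 fold change 0.28 ± 0.0620, limma-trend adjusted p 0.0771), while edgeR gave an adjusted p of 0.0013. DCXR had 0.11 ± 0.0413 on the log2 scale and AKR1B1 0.07 ± 0.0690, and neither passed. Without shNC library 1 or without shNC library 2, limma-trend passed 0 of these 25 genes. Without shALKBH5 library 1 or without library 2 it passed 5 each time (8.82% and 9.45% of all genes).

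**Figure D5:**
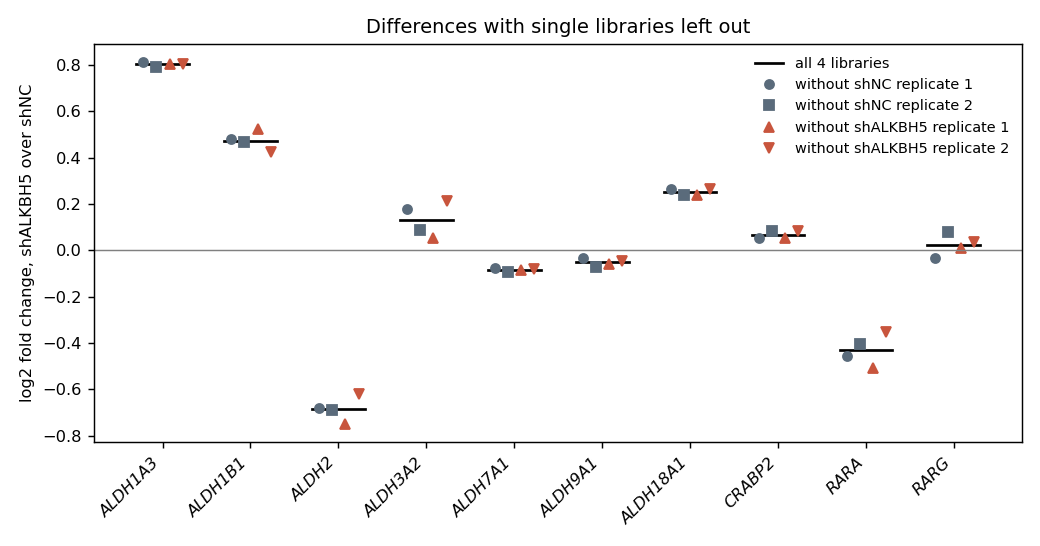
Log2 fold change of shALKBH5 over shNC for the 10 genes with all 4 libraries (bar) and with each library left out in turn (points). ALDH1A3 stays between 0.79 and 0.81, ALDH2 and RARA stay below 0, and RARG falls on both sides of 0.

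Among 12540 genes whose mean reached 50, those whose log2 values over the 4 libraries, centred on each gene's mean, lay nearest to the profile of ALDH1A3 were ITGB4, ADAM19, HOXB-AS3, HOXB8 and ZNF827. Their Euclidean distances to ALDH1A3 ran from 0.0066 to 0.0576 on the log2 scale over 4 libraries of 2 groups. The nearest, the integrin gene ITGB4, was at 8550 and 8414 in shNC and at 14818 and 14731 in shALKBH5. HOXB8, a homeobox gene, was at 409.9, 406, 703 and 687. With 4 libraries such a profile is little more than the difference between the groups.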

How the data were processed

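RNA-seq of 2 shNC and 2 shALKBH5 libraries was analysed from 1 deposited table. The deposited values are a normalised signal, in which each library's reads were scaled by 1 factor, as the spacing of the values shows. Whole reads were recovered for 100% of values within a tolerance of 0.001 reads. The table also holds the authors' log2 fold change, p-value and adjusted p-value, per the file headers. Names for the aligner, counting program and build were not given in the sources used here; positions of 99.9% of genes matched GENCODE release 29 (GRCh38). The depth of 16398604 to 17493141 reads per library limits the precision of low genes.

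Values were taken as log2(value + 1), genes with at least 1 in at least 2 libraries were tested with limma-trend (limma 3.58.1, R 4.3.3), and p-values were adjusted by Benjamini-Hochberg over all genes with a threshold of 0.05. edgeR 4.0.16 and DESeq2 1.42.0 on recovered reads were alternatives. Libraries of a group differed beyond sampling noise (chi-square per gene 3.00 in shNC, 2.28 in shALKBH5).

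The 10 genes and all lists were chosen with earlier results of these data known. Named were the 10 genes and ALKBH5; per list, genes past the threshold by smallest p and up to 3 others of highest mean; and 5 genes nearest in profile to ALDH1A3. ALDH1A2, ALDH8A1, CYP26A1, STRA6 and antisense genes were named after their values were seen. Some genes that the rule names are counted in their lists but not reported here.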

Additional observations from a re-analysis of the deposited data

How the results depend on the processing

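Over 18 alternatives the log2 fold changes ran from 0.77 to 0.81 for ALDH1A3, 0.42 to 0.53 for ALDH1B1 and -0.75 to -0.62 for ALDH2. They ran from 0.22 to 0.27 for ALDH18A1 and -0.51 to -0.35 for RARA. Some alternatives cannot move a log2 fold change. With no filter, a mean of at least 50, no mean-variance trend or a replicate block, ALDH1A3 kept its main value of 0.801521. A pseudocount also changes little at such levels. The narrow ranges are thus partly set by the choice of alternatives. ALDH1A3 was past the threshold in 15 of the 18, ALDH1B1 and ALDH2 in 14 each, and ALDH18A1 and RARA in 12 each. Calls were less stable. The main counts were 1000 of all genes, 5 of the 10, 0 other aldehyde dehydrogenases, 3 retinoid genes and 3 carbonyl and partner genes. A pseudocount of 0.1 gave 500 of all genes, 3 of the 10 and 1 carbonyl or partner gene. A mean of at least 50 gave 3487 of all genes, 12 retinoid and 7 carbonyl or partner genes. edgeR gave 3428, 13 and 8, and DESeq2 gave 5 retinoid genes. Without the mean-variance trend 0 genes passed in all, among the 10 and in every list. With single libraries left out, limma-trend and edgeR together gave 0 to 3433 of all genes, 0 to 6 of the 10, 0 to 1 other aldehyde dehydrogenases, 0 to 13 retinoid genes and 0 to 8 carbonyl or partner genes; a group with 1 library is assumed to vary like the other, and the edgeR fits with a library left out were chosen after seeing the data. Equal totals gave 323 higher and 540 lower genes, against 513 and 487. Summed values of the genes tested were 1.66e+07 and 1.68e+07 in shNC and 1.711e+07 and 1.706e+07 in shALKBH5. Scaling to equal totals therefore lowers every shALKBH5 value relative to shNC. Why the totals differ was not tested.

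Deviations of same-numbered libraries correlated at -0.0275, so no shift shared by same-numbered libraries was seen. That value cannot show whether the samples were prepared in pairs. With the replicate number as a block, 111 of 25887 genes passed, 1 of the 10 (ALDH1A3), and 0 retinoid and 0 carbonyl or partner genes, in a fit with fewer residual degrees of freedom.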
